A study of Mus musculus with 2 samples.

Results

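The 8 genes described here, Alas1, Alas2, Alad, Uros, Urod, Cpox, Ppox and Fech, encode enzymes of heme biosynthesis. They were chosen by name for the reactions they catalyse, with earlier results of these data known, and are described in the order of the pathway. Each was matched to the deposited tables by its Ensembl gene identifier, which gave 8 of the 21461 nuclear protein-coding genes and 44 transcripts in the tables. Total RNA was sequenced from G1E-ER4, an immortalized mouse erythroid line in which Gata1 function has been restored and estradiol induces differentiation. By the labels, the line is from a male of strain C57BL/6J, at a postnatal stage and an age of 0 day. Both libraries came from cells given 10 nM 17beta-estradiol for 24 h, and they are labelled as biological replicates 1 and 2 of 1 group. The series holds no untreated or parental cells, so no level can be compared with a control, and no test between conditions was possible. As background, the parental G1E line lacks Gata1, and the ER4 subclone carries GATA1 fused to the ligand-binding domain of the estrogen receptor. All values are therefore those of 1 engineered subclone under 1 treatment.

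Heme is an iron-bearing ring that hemoglobin uses to carry oxygen. Its synthesis starts in the mitochondrion, where an aminolevulinate synthase joins glycine to succinyl-CoA, continues through ring-building enzymes in the cytosol, and returns to the mitochondrion for the last oxidations and the insertion of iron. Alas1 encodes the synthase that most tissues use, Alas2 the one specific to erythroid cells, and GATA1 is known to activate several genes of the pathway as red cells mature.

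The libraries held 50277261 and 47478128 expected counts over Ensembl genes, and those on nuclear protein-coding genes were 14373925 and 13901316. Levels are given in TPM, each transcript's length-corrected part of a fixed total, which allows comparison between genes. Nuclear protein-coding genes took 22.7% and 22.9% of all TPM. The total also covers everything else listed, such as non-coding and mitochondrial genes, and the rest was not split by kind. A level here is therefore lower than it would be on a scale of nuclear protein-coding genes alone. A count of 3 on a gene with an effective length of 1 kb corresponded to 0.0910 and 0.0957 TPM. The erythroid label was checked on 11 markers, and 11 of 11 reached 1 TPM in both libraries. Gata1 is among them, and the line carries a GATA1 fusion, so its detection is no check of the label. The markers were led by the beta-globin gene Hbb-bs at 1001 ± 10.3 TPM (SD, n = 2) and the transferrin receptor gene Tfrc at 160 ± 6.07. Of 10 hepatocyte markers, which would mark another heme-producing cell, none reached 1 TPM, and 9 had no count in either library.

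All 8 enzymes were expressed. Every one reached 1 TPM in both replicates, a level that 40.2% of nuclear protein-coding genes reached (8620 of 21461). Their median was 20.0 TPM, beside 9.76 over the 8620 detected genes and 0.025 over all 21461. The levels covered a wide range, from Cpox at 361.94 TPM to Uros at 4.53. In bulk RNA, fewer cells expressing a gene and less RNA per cell cannot be told apart.

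The order from highest to lowest mean TPM was Cpox, Fech, Urod, Alad, Ppox, Alas2, Alas1 and Uros. No neighbours in that order had overlapping replicate values. The closest pair was Alas1 and Uros, whose nearest TPM values lay 0.10 apart, less than the difference between the replicates of Alas1. Within a library, the authors' credibility intervals overlapped for Alas1 and Uros in both replicates, and for Alad and Ppox in replicate 2. Cpox and Fech, which act late and in the mitochondrion, stood apart at the top, and the 3 lowest genes were both synthases and Uros. Ppox, which acts between Cpox and Fech and also in the mitochondrion, was at 18.02 TPM, below the cytosolic Urod and Alad. Summed over the 8 genes, the level was 537.07 TPM in replicate 1 and 543.12 in replicate 2, and Cpox alone made up 67.6% and 66.5% of it.

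**Figure D1:**
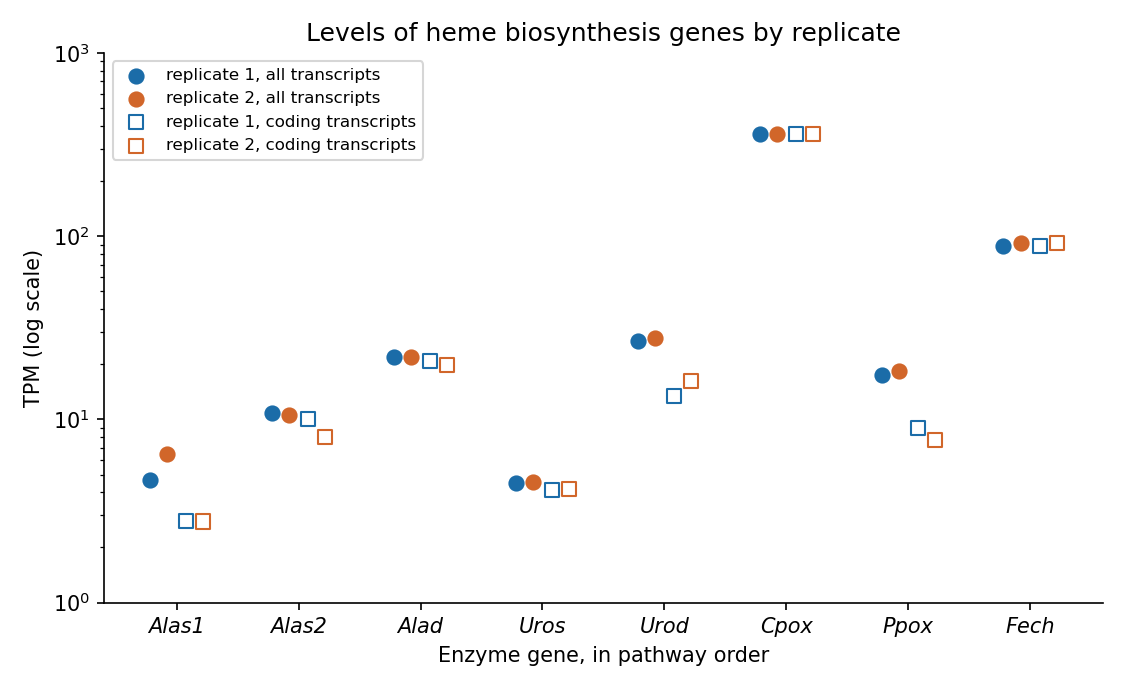
TPM of each heme biosynthesis gene in pathway order on a log scale, with 1 mark per replicate, circles for all transcripts and open squares for protein-coding transcripts alone. Cpox stands highest, at a mean of 361.94 TPM, and Fech next at 90.0, and the squares lie well below the circles for Alas1, Urod and Ppox.

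Alas1 encodes the housekeeping synthase for the opening, rate-limiting reaction (ENSMUSG00000032786, minus strand, chr9:106233455-106248654 in mm10, the build of all gene positions here). Its level was 4.68 TPM in replicate 1 and 6.48 in replicate 2, from 281 and 372 expected counts. Replicate 2 was higher, and this was the widest relative gap among the 8 genes (mean 5.58 ± 1.27, log2 ratio 0.46). The gap was not in the protein-coding transcripts, which summed to 2.78 TPM in replicate 1 and 2.77 in replicate 2. It lay in the non-coding Alas1-206, a processed transcript of 1905 bases, which was listed at 0 in replicate 1 and at 1.77 TPM in replicate 2 (0 and 99.07 expected counts). Coding transcripts therefore made up 59.4% of the gene's TPM in replicate 1 and 42.8% in replicate 2. Among them Alas1-207 led with 46.33% and 33.79% of the gene's TPM. Alas1-203, annotated as retaining an intron, took 24.96% and 17.80%. The coding Alas1-201 took 13.14% and 6.59%, and Alas1-205, annotated for nonsense-mediated decay, 0% and 10.94%.

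Alas2 encodes the erythroid synthase, whose loss in humans causes an X-linked sideroblastic anemia (ENSMUSG00000025270, plus strand, chrX:150547375-150570638). It stood at 10.79 TPM in replicate 1 and 10.59 in replicate 2, so the gene's level differed little between the libraries (mean 10.7 ± 0.141). The counts behind those values differed more, at 643 and 513, and after scaling by library size with edgeR's TMM factors the log2 ratio was −0.28, against −0.03 for TPM. The gene's effective length, which the authors' tables weight by transcript, was 1806.76 bases in replicate 1 and 1545.28 in replicate 2. That difference follows from how the estimates were shared among transcripts. The full-length coding Alas2-201 was at 10.02 TPM in replicate 1 and 7.66 in replicate 2, and the short non-coding Alas2-204, of 569 bases, was listed at 0 and 2.16 TPM on 0 and 30.14 expected counts. Measured on coding transcripts alone, Alas2 was at 10.02 and 7.99 TPM, with replicate 1 higher.

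In each replicate Alas2 was above Alas1. The ratio of their TPM was 2.31 in replicate 1 and 1.63 in replicate 2 (1.97 ± 0.475), and on coding transcripts alone it was 3.60 and 2.88 (3.24 ± 0.509). Both values exceeded 1 on either scale, but the size of the ratio depended on whether non-coding transcripts were included. The coding sequences of Alas1-201 and Alas2-201, of 1923 and 1761 bases, were 70.0% identical over 1731 aligned bases, and the longest run of bases shared by the transcripts was 20. Their posterior SD of count in the authors' tables was 0 in both replicates, as for all 8 enzymes and for 84.1% of detected genes.

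**Figure D2:**
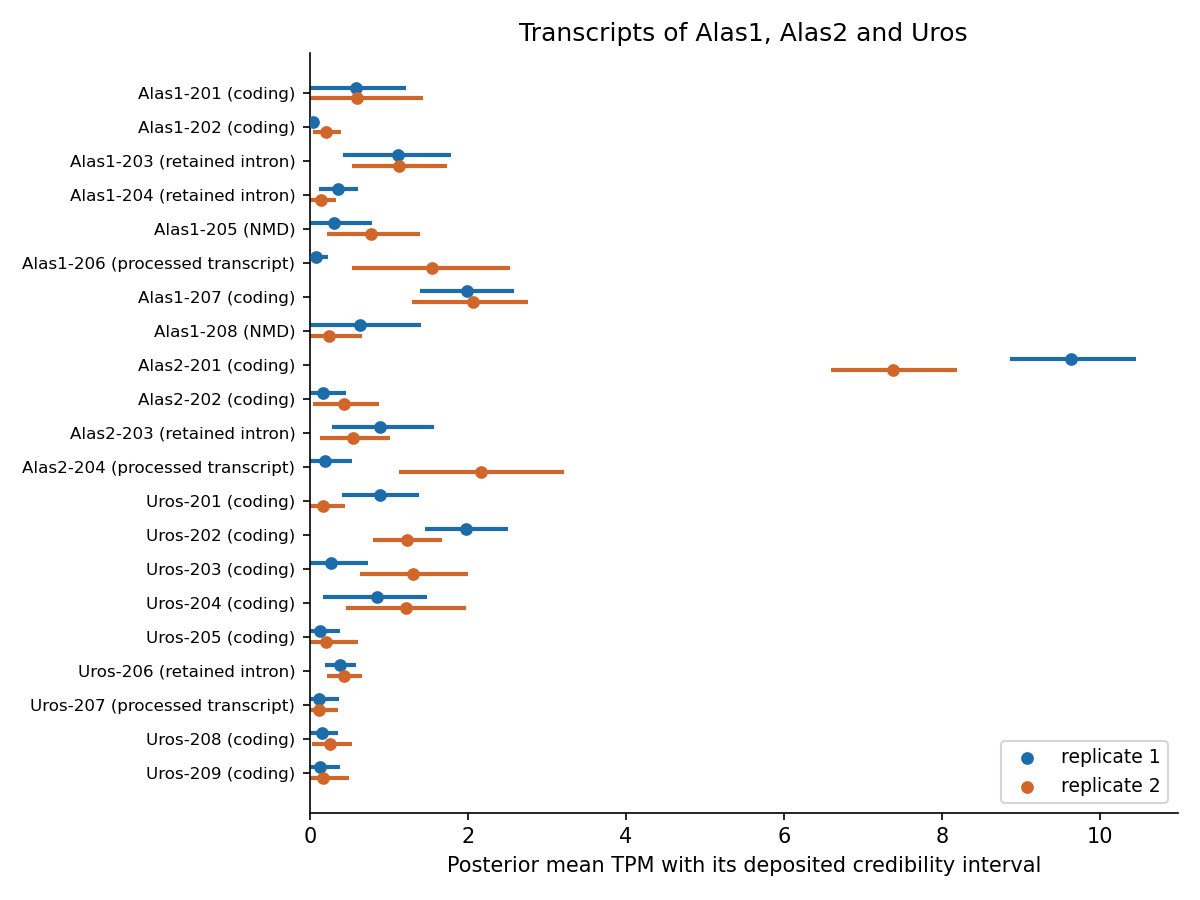
Posterior mean TPM of each transcript of Alas1, Alas2 and Uros with the authors' credibility interval, for replicates 1 and 2. The intervals of Alas1-206, Alas2-201 and Alas2-204 lie apart between the replicates, and those of all listed Uros transcripts overlap.

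The short sequence that sets the erythroid synthase apart is the iron-responsive element in its leader, a hairpin that iron regulatory proteins bind to block translation when iron is scarce. It is shown because it is a known difference in control between the synthases that mRNA levels do not measure. In Alas2-201 it lies at bases 84 to 113, and the capitals mark its 6-base loop:
Alas2-201: ttggttcgtcctCAGTGCagggcaacagga
The same loop was present in the other coding transcript in the reference annotation, Alas2-202. The letters CAGTG were in the first 100 bases of no Alas1 transcript annotated as coding, and in 13.8% of 58737 mouse coding transcripts, so a match of the letters alone is common.

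GATA1 is known to bind GATA letters with A or T before them and A or G after. Read in full these are AGATAA and AGATAG. The same rule gives TGATAA and TGATAG. These 4 motifs were searched on both strands in the 250 bases before each RefSeq start (GRCm38.p6), for the 7 enzymes whose windows were used. Windows of Alas2, Cpox and Uros held a match, 3 of 10 windows, beside 26.5% of 32851 mouse windows of the same length, so the share was near the background. Cpox, the highest of the genes, and Alas2, the erythroid synthase, are shown on the plus strand with the matches in capitals. The Cpox stretch is chr16:58670088-58670207, and the Alas2 stretch is chrX:150547297-150547374, ended at the GENCODE start, which lies 42 bases before the RefSeq start:
Cpox: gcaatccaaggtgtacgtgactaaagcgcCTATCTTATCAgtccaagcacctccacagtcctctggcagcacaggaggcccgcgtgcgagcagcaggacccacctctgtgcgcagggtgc
Alas2: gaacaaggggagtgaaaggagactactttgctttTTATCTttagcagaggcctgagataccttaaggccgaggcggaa
Read on the minus strand, the Cpox capitals are AGATAG and TGATAA, which share 1 base and lie 91 to 81 bases before the start. The Alas2 capitals are AGATAA on the minus strand, 86 to 81 bases before the RefSeq start. One of the 2 Uros windows held AGATAG and TGATAA, and windows of Alas1, Alad, Urod and Ppox held none of the 4 motifs. A match is letters only, and binding was not measured here.

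Alad encodes the cytosolic dehydratase that joins aminolevulinate molecules into the pyrrole porphobilinogen (ENSMUSG00000028393, minus strand, chr4:62509169-62519918). Its level was 21.92 TPM in replicate 1 and 21.90 in replicate 2, on 807 and 782 expected counts. The replicates were nearly equal (21.9 ± 0.0141). The coding transcript Alad-201 made up 94.77% and 90.06% of the gene's TPM. The remainder was Alad-203, a processed transcript at 1.15 TPM in replicate 1 and 2.18 in replicate 2. In TPM, Alad was at 1.35 ± 0.0947 times the summed level of both synthases, and 1.73 times on coding transcripts alone. By expected counts, which are not corrected for length, the direction turned, at 0.878.

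Uros encodes uroporphyrinogen III synthase, which closes the ring with one pyrrole flipped and whose deficiency in humans is congenital erythropoietic porphyria (ENSMUSG00000030979, minus strand, chr7:133686243-133710072). It was at 4.48 TPM in replicate 1 and 4.58 in replicate 2, from 188 and 189 expected counts. The replicate values were close (4.53 ± 0.0707), and the gene was the lowest of the 8, at 0.207 ± 0.00336 of the level of Alad. Its coding transcripts together were as close, at 4.12 and 4.17 TPM. Among them, Uros-202 took 44.41% of the gene's TPM in replicate 1 and 27.53% in replicate 2, and Uros-204 took 23.71% and 28.65%. Uros-201 took 22.08% and 0%, and Uros-203 took 0% and 31.13%. The gene had fewer than 200 counts in each replicate. The authors' credibility intervals of each of these 4 transcripts overlapped between the replicates. These coding transcripts share most of their span, from base 133686365 to base 133709281 of the chromosome for Uros-201 and from 133686356 to 133709069 for Uros-203.

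Urod encodes the decarboxylase that trims the side chains of the ring in the cytosol (ENSMUSG00000028684, minus strand, chr4:116989965-116994413). It stood at 26.87 TPM in replicate 1 and 27.98 in replicate 2 (27.4 ± 0.785), which was 6.05 ± 0.0788 times the level of Uros, or 3.57 ± 0.457 times on coding transcripts alone. Much of this was not coding RNA. Coding transcripts summed to 13.37 TPM in replicate 1 and 16.23 in replicate 2, or 49.8% and 58.0% of the gene. Transcripts annotated as retaining an intron held 50.23% and 41.97%, led by the short Urod-205 (539 bases, 30.59% and 20.91%) and Urod-209 (598 bases, 16.15% and 13.81%). TPM weights short transcripts up: by expected counts, which do not, the coding share was 73.1% and 78.2%. The full-length Urod-201 was higher in replicate 2, at 12.33 against 15.83 TPM.

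Cpox encodes coproporphyrinogen oxidase, which works in the space between the mitochondrial membranes (ENSMUSG00000022742, plus strand, chr16:58670292-58717636). Its level was 362.81 TPM in replicate 1 and 361.07 in replicate 2, on 36697 and 34669 expected counts. The replicates differed by under 1% of the level (361.94 ± 1.23). By mean TPM the gene ranked 70 among the 21461 nuclear protein-coding genes, and it stood 13.2 ± 0.423 times above Urod, which precedes it in the pathway. The tables list 1 transcript for it, so no share of non-coding RNA could be given, and a lack of such RNA cannot be read from it. The annotated span of Cpox overlaps Gpr15 on the opposite strand by 204 bases, and Gpr15 had 0 counts in both replicates. The listed transcript, Cpox-201, ends at base 58680386 in the reference annotation, before Gpr15 begins at 58717433.

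Ppox encodes the oxidase that makes protoporphyrin on the inner mitochondrial membrane, the gene of variegate porphyria in humans (ENSMUSG00000062729, minus strand, chr1:171275990-171281186). It was at 17.56 TPM in replicate 1 and 18.48 in replicate 2 (18.02 ± 0.651), or 0.0498 ± 0.00197 of the level of Cpox. On coding transcripts alone, where Cpox with its 1 listed transcript could not change, that ratio was 0.0230 ± 0.00238. Replicate 2 was higher for the gene, but its coding transcripts went the other way, at 8.97 and 7.71 TPM, led by Ppox-201 with 46.48% and 39.68% of the gene's TPM. Transcripts annotated as retaining introns held 48.93% and 58.28% of its TPM. Ppox-207, of 4411 bases, led them with 34.59% and 27.50% of TPM and 58.0% and 48.6% of the gene's expected counts. Ppox-206 took 6.76% and 16.41% of TPM, and the intervals of its level did not overlap. Unlike in Urod, the share of coding transcripts was lower by counts, at 32.8% and 28.6%, since these intron-bearing transcripts are longer than the coding ones.

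Ppox-207 runs past the end of the coding Ppox-201 into B4galt3, a galactosyltransferase gene on the opposite strand, and Ppox and B4galt3 share 907 bases. The expected counts of B4galt3 were 274 and 328 in the replicates, fewer than Ppox-207 alone. The sources used here do not give whether the counting used strand, so the strand that reads in the shared bases came from is not known. The posterior SD of count was 0 in both replicates for B4galt3, as for Ppox. The same holds for Alas2, whose whole span of 23264 bases lies inside the annotated span of Apex2 on the other strand (496 and 424 counts), and for Uros, which shares 740 bases with Bccip (522 and 544 counts). Alas1 shares 695 bases with the antisense gene 4930500F10Rik, which had 4 and 14 counts. Alad, Urod and Fech overlap no annotated gene. The part of the overlaps in the levels was not tested.

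Fech encodes ferrochelatase, which inserts iron into protoporphyrin and completes heme (ENSMUSG00000024588, minus strand). It stood at 87.96 TPM in replicate 1 and 92.04 in replicate 2, from 8070 and 8015 expected counts. Replicate 2 was slightly higher in TPM, and also in counts scaled by TMM factors, at 7944 and 8142 (mean 90.0 ± 2.885 TPM). The gene ranked 371 by mean TPM. Cpox was above it by 4.02 ± 0.143 times, and Fech was above Ppox, the step before it, by 4.99 ± 0.0202 times, or 10.9 ± 1.51 times on coding transcripts alone. As with Cpox, the tables list 1 transcript, typed as coding, so Fech itself could not change on that scale.

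Coding transcripts made up different parts of the 6 enzymes with more than 1 listed transcript. Mean shares of TPM were 92.4% for Alad, 91.5% for Uros, 84.1% for Alas2, 53.9% for Urod, 51.1% for Alas1 and 46.4% for Ppox. Across the 5387 detected protein-coding genes that have both kinds of transcript, the median was 73.5% and the quartiles were 51.4% and 89.9%. Ppox and, by a small margin, Alas1 lay under the lower quartile, Urod just above it, and Alad and Uros above the upper one. The SD between replicates was 11.7 percentage points for Alas1 and 12.4 for Alas2, and each replicate put Alas1 and Urod on a different side of the lower quartile: Alas1 was under it in replicate 2 alone and Urod in replicate 1 alone.

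**Figure D3:**
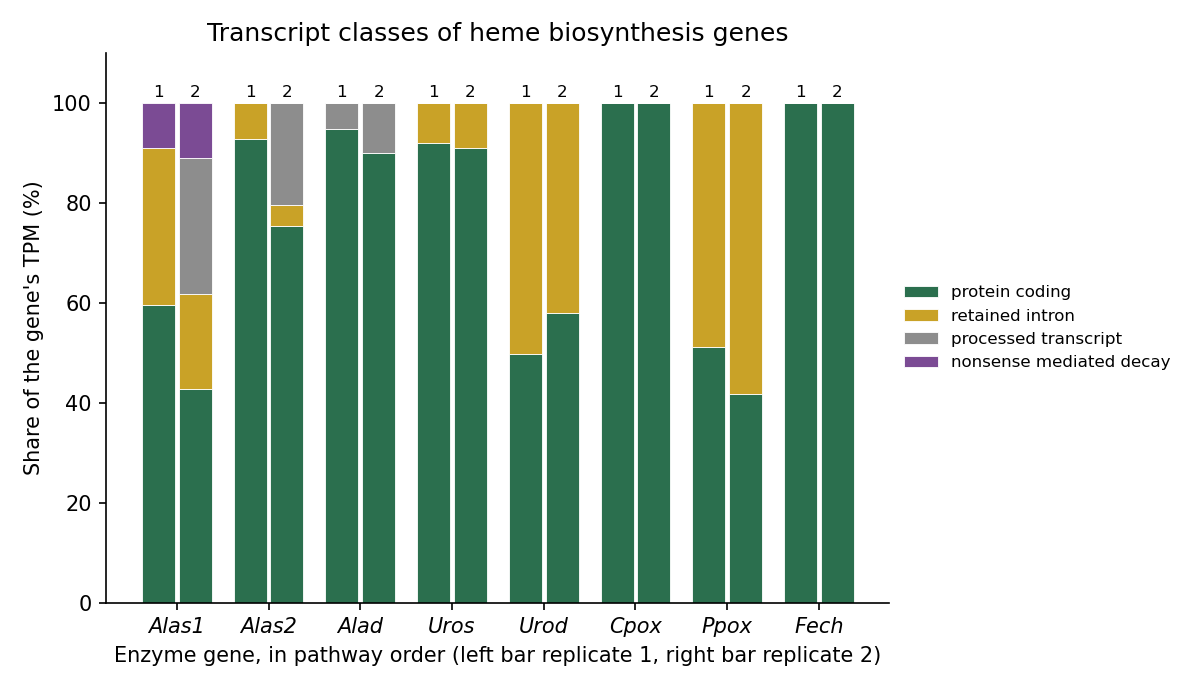
Share of each gene's TPM by annotated transcript type, in percent, with a bar for each replicate. Coding transcripts fill over 90% of Alad and Uros, and between 41.7% and 59.4% of Alas1, Urod and Ppox. They fill all of Cpox and Fech, which have 1 listed transcript each.

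Counting coding transcripts alone changed the order of the genes. On that scale, which was chosen after the values were seen, it was Cpox, Fech, Alad, Urod, Alas2, Ppox, Uros and Alas1. Alad passed Urod, at 20.2 against 14.8 TPM, and Alas1 fell below Uros, at 2.775 ± 0.0071 against 4.145 ± 0.0354. Alas2 and Ppox, at 9.005 and 8.34 TPM, overlapped between replicates and have no order. Cpox and Fech kept the highest places, but each has 1 listed transcript, typed as coding, so neither could lose TPM on this scale. The step from Urod to Cpox widened to 24.7 ± 3.46 times, and it could not have narrowed, since Urod alone could lose TPM. By expected counts, which are not corrected for length, it was 43.5 times.

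At the level of whole genes, the replicates of the enzymes lay close together. None of the 8 differed by 2-fold or more, on log2(TPM + 0.1), beside 1.95% of the 8808 genes with a mean of at least 1 TPM (172 genes), so 0 of 8 is near that background. By counts scaled with TMM factors the number was also 0, beside 1.45%. The absolute log2 ratio had a median of 0.04 over the 8 enzymes and 0.16 over the 8808 genes. Those genes reach down to a mean of 1 TPM and were not matched to the enzymes in level. The authors' credibility intervals, whose level the tables do not state, overlapped between replicates for 8 of 8 enzymes. They did not overlap for 24.5% of the 8808 genes, and whether the enzymes differ from that share was not tested. For Fech they overlapped narrowly, at 84.1 to 87.8 TPM in replicate 1 and 87.7 to 91.6 in replicate 2.

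**Figure D4:**
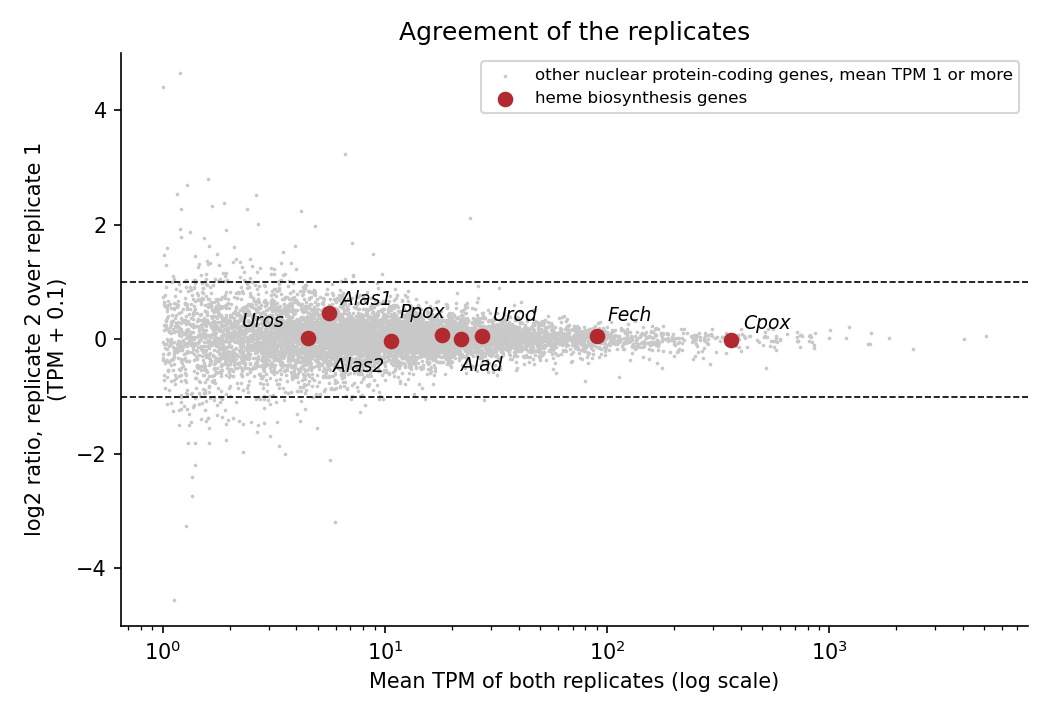
Log2 ratio of replicate 2 over replicate 1 against mean TPM on a log scale for genes of mean TPM 1 or more, with the 8 enzymes in red and dashed lines at 2-fold. Alas1 is the farthest from 0 among the enzymes, at 0.46, and the others lie close to 0; 2 genes fall outside the vertical range.

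Single transcripts were compared in the same way. Of the 22 enzyme transcripts that reached 1 TPM in a replicate, 6 had intervals that did not overlap, or 27.3%, near the 26.3% over 22987 transcripts of nuclear protein-coding genes. They were Alad-203, Alas1-206, Alas2-201, Alas2-204, Ppox-206 and Urod-201. Both coding and non-coding transcripts were among them.

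Steps around the enzymes were expressed too. Of 16 transporters of heme and its precursors, 13 reached 1 TPM in both replicates, and the median of the 16 was 9.74 TPM. They were led by the heme carrier Slc48a1 at 39.8 ± 0.771, the mitochondrial carrier Slc25a39 at 38.9 ± 0.997, and the porphyrin exporter Abcg2 at 34.3 ± 2.93. Flvcr2, a relative of the heme exporter Flvcr1, and Slc46a1, a folate carrier of the gut, had no count. The glycine carrier of mitochondria, Slc25a38, was at 10.69 TPM in replicate 1, close to Alas2, the enzyme it supplies, and at 15.2 in replicate 2, above it.

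Glycine and succinyl-CoA are the substrates of the synthases. Of 11 genes of their supply, 9 reached 1 TPM in both replicates (median 14.4). The mitochondrial serine hydroxymethyltransferase Shmt2, which makes glycine, was at 88.9 ± 1.21 TPM, and the dehydrogenase subunits Dld and Dlst, which serve succinyl-CoA formation, were at 37.3 ± 0.544 and 29.2 ± 1.54. The glycine cleavage genes Gldc and Amt were at the other end: Gldc had no count and Amt had 0 and 3. Not all genes of glycine cleavage were low, as Gcsh was at 6.58 TPM in replicate 1 and 5.7 in replicate 2.

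Among 13 genes of heme breakdown and heme sensing, 10 reached 1 TPM in both replicates, with a median of 5.425 over the 13. Fth1, the ferritin heavy chain that stores iron, was at 502 ± 24.3 TPM, above Cpox. The biliverdin reductase Blvrb was at 101.34 ± 2.46 and the constitutive heme oxygenase Hmox2 at 12.3 ± 1.17. The heme-binding repressors Nr1d1 and Bach2 were lowest, at 0.585 ± 0.0919 TPM and with 0 and 2 counts. Hmox1, the inducible heme oxygenase, was at 5.08 TPM in replicate 1 and 4.09 in replicate 2.

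Regulators and partners of the enzymes were mostly present, 15 of 16, with a median of 14.9 TPM. Glrx5, a glutaredoxin of iron-sulfur cluster assembly that supports Fech and the iron control of Alas2, led at 90.6 ± 6.09. Gata1 followed at 61.6 ± 5.74 and the peroxiredoxin Prdx1 at 56.25 ± 4.62. The line carries an introduced GATA1 fusion, and its part in the Gata1 level was not tested. Clpx, the unfoldase that acts on the synthases, was at 7.37 ± 0.424, and the coactivator Ppargc1a, which drives Alas1 in fasted liver, had 0 and 1 count. In these 4 lists, in the order given, 13, 9, 11 and 15 genes had a mean of at least 1 TPM. None of them differed by 2-fold or more between the replicates, beside 1.95% of the 8808 such genes, so this is near that background. Median levels of the 4 lists lay below the 20.0 TPM of the enzymes. No difference between the lists was tested.

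**Figure D5:**
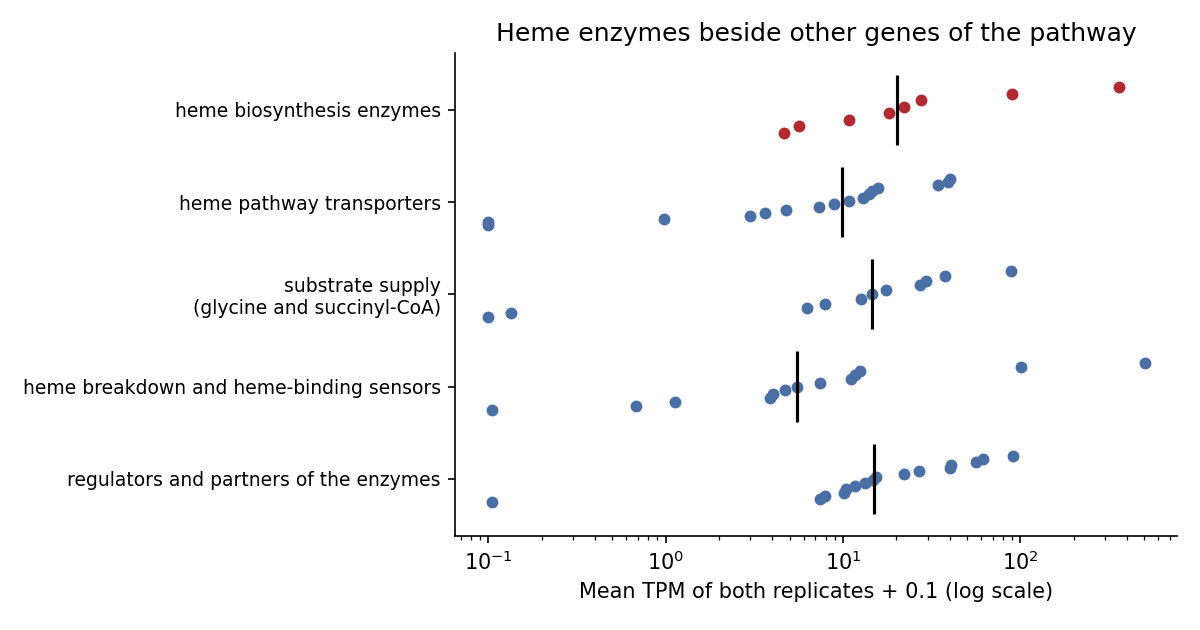
Mean TPM of both replicates plus 0.1, on a log scale, for the 8 heme enzymes and 4 lists of related genes, with 1 point per gene and a bar at each list's median. The enzymes' median is 20.0 TPM, and the related lists' medians run from 5.425 to 14.9.

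Most markers of other blood cells were low, but not all. Cpa3 had a mean of 27.4 TPM and Pf4 of 14.75, beside 26.9 for the erythroid marker Klf1 and 10.7 for Alas2. Of 10 macrophage and granulocyte markers none reached 1 TPM in both libraries, and their sum was 1.42 TPM in replicate 1 and 4.45 in replicate 2. Cd68 was at 0.90 and 2.08 TPM and Mpo at 0.06 and 1.29. Of 10 megakaryocyte markers 4 did, with a sum of 33.33 and 24.9 TPM, led by Pf4 at 18.96 and 10.54 and Itga2b at 5.75 and 6.94. Of 10 mast cell and basophil markers 2 did, with a sum of 29.64 and 31.58 TPM, led by Cpa3 at 26.71 and 28.0 and Hdc at 1.92 and 1.89. In each of the 3 lists, 4 of the 10 markers had no count. Their part in the levels of the enzymes was not tested. Alas1, the enzyme with the widest gap between replicates, was higher in replicate 2, but its coding transcripts were at 2.78 and 2.77 TPM. In replicate 2 the macrophage and granulocyte sum and the mast cell and basophil sum were also higher, and the megakaryocyte sum was lower. A link between these values was not tested.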

How the data were processed

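The labels give the assembly as mm10, and the deposited documentation names GENCODE M4 per the file headers. For the aligner, the quantifier's version and the strand setting, the entry is: not given in the sources used here. Per the authors' deposited tables, an expected count is an estimate of the reads or fragments of a gene or transcript, without normalization. TPM as deposited sums to the same total in each library over everything listed, and the deposited FPKM corrects for length and depth. The percent that the authors deposited for a transcript is its share of its gene's TPM. Their credibility intervals belong to posterior mean TPM.

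Symbols, coordinates and transcript types came from GENCODE M21, matched by identifier without version, and promoter windows from RefSeq (GRCm38.p6). The lengths of Alas1-205, Alas1-207, Cpox-201 and Fech-201 differ between M21 and the tables. The coding share is the TPM of transcripts typed as protein coding in M21 over the gene's TPM. Detected means at least 1 TPM in both replicates. Log2 ratios used a pseudocount of 0.1 and a mean of at least 1 TPM. Library size factors came from edgeR 4.0.16 (TMM) and DESeq2 1.42.0 on rounded expected counts. The ratio step was tested on simulated data. With 1 group of 2 replicates, no significance test was run, and every SD printed with a level, share or ratio is over n = 2. When settings were compared, the SD used for log2 ratios was instead the one across the enzymes. The members and lists were chosen with earlier results of these data known. Named genes were the 3 highest and 2 lowest of each pathway list, the 2 highest of each marker list, and transcripts of at least 10% in a replicate. Slc25a38, Hmox1 and Gcsh were added after their values were seen. Alternatives were other units, size factors, thresholds, pseudocounts, leaving out a replicate, and coding transcripts alone.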

Additional observations from a re-analysis of the deposited data

How the results depend on the processing

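No paired analysis was possible because the series has 1 group. The median level of the 8 enzymes, 20.0 TPM, was 87.7 when TPM was rescaled over nuclear protein-coding genes, 13.1 in FPKM, 11.9 on coding transcripts alone (chosen after seeing the data), and 19.7 to 20.2 with either replicate left out. Alas2 over Alas1, 1.97, was 3.24 on coding transcripts alone and 1.63 to 2.31 with either replicate left out. The median share of the leading transcript, 47.2%, was 67.5% by expected counts, 43.9% by posterior mean TPM, and 46.4% to 48.1% with a replicate left out. The median coding share over 6 genes, 69.0%, was 81.0% by expected counts and 66.7% to 75.7% with a replicate left out. At a threshold of 5 TPM, 6 of the 8 enzymes were detected, without Alas1 and Uros, and 8 at each other setting tried. No enzyme was 2-fold apart under any setting tried, while the background was 3.80% with no filter and 0.289% at a mean of at least 5 TPM. Of the values for single genes and pairs of genes, 71 stayed within 1 SD of the reported value and 59 did not. That leaves aside the settings with a replicate left out, which with 2 replicates always stay within it. For log2 ratios the SD was the one across the 8 enzymes, 0.158, not one between replicates. Among the 59 were all 8 levels in FPKM and all 8 in rescaled TPM, where the unit itself changed. Uros and Alas1 had the fewest counts, 188 to 372 in a replicate.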

Other observations

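Outside the rule for named genes, and chosen after their values were seen, several genes beside the enzymes differed between the replicates more than most of the enzymes did. The mitochondrial ATP-binding transporter Abcb6 was at 10.2 TPM in replicate 1 and 7.36 in replicate 2, on 532.63 and 379.77 expected counts. The outer-membrane protein Tspo went the other way, at 2.85 and 4.19 TPM, as did the mitochondrial iron carrier Slc25a28 at 2.2 and 3.6 and the biliverdin reductase Blvra at 3.25 and 4.66. For the plasma membrane glycine carrier Slc6a9 the units differed in direction: TPM was 1.09 and 0.67, while the expected counts were 57 and 63. The erythroid iron carrier Slc25a37 was nearly equal, at 14.36 and 14.47 TPM. With 2 libraries, none of these differences was tested.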
